A study of Mus musculus with 9 samples.

Results

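The cytosolic heat shock chaperones described here are 10 genes taken as a fixed list, Hspa1a, Hspa1b, Hspa8, Hsph1, Hsp90aa1, Hsp90ab1, Dnajb1, Dnaja1, Bag3 and Hspb1, out of 35288 Ensembl genes in the count matrix. The list was chosen with earlier results of these data known. All 10 genes had a row in the matrix and a symbol in GENCODE M21. RNA-seq had been performed on T15, a murine Smarcb1-negative peripheral T-cell lymphoma (PTCL) cell line, in 3 groups of 3 libraries. The control group is labelled only as control, and the study's text calls these cells untreated. SAHA cells received SAHA (vorinostat), an inhibitor of histone deacetylases, at 1 µM, given 2 times within 72 h. Smarcb1-RE cells had been transduced with a lentiviral pInd20 plasmid carrying Smarcb1 cDNA, selected with G418 and induced with doxycycline (Dox, 0.5 µg/µl) for 72 h.

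All 3 groups share the Smarcb1-negative background of 1 cell line. The labels name vehicle as the counterpart of SAHA and a plasmid without Smarcb1 as that of re-expression, without saying which of them the control libraries received, so the effects of transduction, selection and Dox cannot be told apart from that of Smarcb1. Stable clones were established after selection, and the labels do not say whether the 3 Smarcb1-RE libraries came from 1 of them.

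Heat shock proteins fold newly made proteins and hold or refold damaged ones. HSP70 proteins bind short unfolded stretches with the help of J-domain proteins and are released by nucleotide exchange factors, and HSP90 proteins then finish the maturation of kinases, steroid receptors and other client proteins. Some members are made at all times in dividing cells, others are induced by stress through the transcription factor HSF1. HDAC6, a cytoplasmic deacetylase and a target of SAHA, removes acetyl groups from HSP90, a step that RNA levels do not measure.

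The first comparison asked which of these genes differed after SAHA, the second which differed after Smarcb1 re-expression, and the third whether both effects differed from each other. Of the 10 genes, 9 passed the filter on low counts and were tested. All 9 fell in Smarcb1-RE, whereas in SAHA the 3 most abundant genes and Hsph1 fell less, Hspa1b rose and 4 genes were not called. Together the 10 genes took 0.982% ± 0.00974 (SD, n = 3) of all counts in control, 0.784% ± 0.026 in SAHA and 0.384% ± 0.00708 in Smarcb1-RE. No library of one group overlapped with a library of another in this share.

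**Figure D1:**
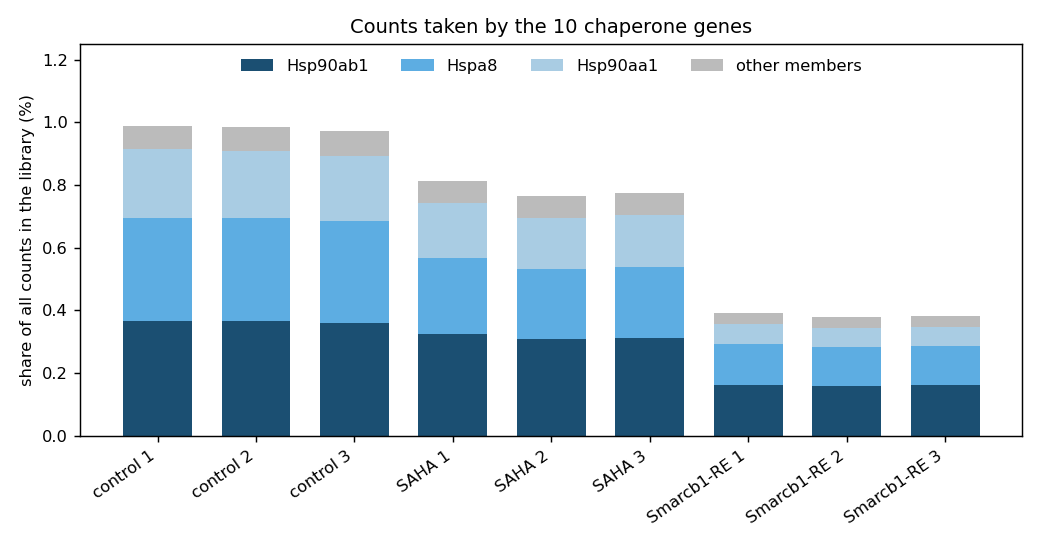
Stacked bars give the share of all counts in each of the 9 libraries (y axis, percent) attributed to Hsp90ab1, Hspa8, Hsp90aa1 and the other 7 genes together. The bars stand between 0.971% and 0.989% in control, between 0.764% and 0.813% in SAHA and between 0.378% and 0.392% in Smarcb1-RE.

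In the 9 tested genes, 4 were called lower and 1 higher in SAHA than in control (edgeR's quasi-likelihood test, Benjamini-Hochberg adjusted p-value under 0.05 over all tested genes). Among all 13697 tested genes, 34.3% were called lower and 32.6% higher in this comparison. In Smarcb1-RE against control, 9 were called lower and 0 higher, where 38.6% of all tested genes were called lower and 39.2% higher. In the direct comparison of Smarcb1-RE with SAHA, 9 were again lower and 0 higher, against 36.8% lower and 37.7% higher over all tested genes. In both comparisons with Smarcb1-RE, DESeq2 also called 0 higher and 9 lower. When an absolute log2 fold change of at least 1 was required as well, 6 of the 9 were lower in Smarcb1-RE than in control, where 6.78% of all tested genes were lower and 16.9% higher. Against SAHA, 8 of the 9 were lower, beside 8.21% lower and 11.5% higher over all tested genes. In SAHA against control none of the 9 reached this limit, which 2.35% of all tested genes passed as lower and 9.85% as higher. The control libraries are shared by the first and second comparisons, and the SAHA and Smarcb1-RE libraries each enter 2 comparisons. The median log2 fold change of the 9 genes was 0.04 in SAHA, beside 0.003 for all tested genes, and -1.54 in Smarcb1-RE, beside 0.01 for all tested genes. In Smarcb1-RE the 9 values lay between the lowest 0.475% and the lowest 13.2% of all tested genes.

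Library totals ranged from 20900424 to 24941408 estimated counts, and 3 counts, taken as the floor of detection, equal 0.123 to 0.133 CPM (a gene's count relative to the total of its library, the total being adjusted by the TMM factor), a limit that covers counting error only. Smarcb1, the re-expressed gene, stood at 6.36 ± 0.206 CPM (SD, n = 3) in Smarcb1-RE, 0.208 ± 0.122 in control and 0.336 ± 0.224 in SAHA. T-cell markers were present in all libraries (summed level of the 10 markers between 3159 and 3589 CPM), with Cd4, Cd2 and Thy1 at or near 0, whereas B-cell, myeloid and fibroblast or epithelial markers summed to at most 7.41 CPM per list in any library. The mitochondrially encoded share of counts was 4.79% to 5.08% in Smarcb1-RE and 3.02% to 3.76% in the other 2 groups, and its part in the results was not tested. In these bulk libraries, fewer cells with a transcript and less of it per cell cannot be told apart.

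Of the 10, Hsp90ab1, the constitutive cytosolic HSP90, had the most counts attributed to it (chr17:45567775-45573271, minus strand, GRCm38). Its TMM-normalised level was 3837, 3812 and 3690 CPM in control replicates 1 to 3, 3353, 3189 and 3244 CPM in SAHA and 1523, 1473 and 1511 CPM in Smarcb1-RE. The 3 groups did not overlap, with Smarcb1-RE lowest. In SAHA the transcript fell by 13.7% (log2 fold change -0.21, standard error 0.04, adjusted p = 0.00023, edgeR). In Smarcb1-RE it fell by 60.3% (log2 fold change -1.33, standard error 0.04, adjusted p = 1.61e-11).

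Hsp90aa1, the stress-inducible cytosolic HSP90 (chr12:110690605-110702728, minus strand), stood at 2332, 2211 and 2144 CPM in control, at 1830, 1697 and 1724 CPM in SAHA and at 595, 574 and 579 CPM in Smarcb1-RE. Here too the groups were separate and Smarcb1-RE was lowest. Hsp90aa1 fell by 21.5% in SAHA (log2 fold change -0.35, standard error 0.04, adjusted p = 1.49e-05, edgeR) and by 73.9% in Smarcb1-RE (log2 fold change -1.94, standard error 0.05, adjusted p = 4.39e-12). Of its 31-base transcript words 51.4% occur in other genes, mostly Gm12346, and the 3 genes outside the list that share at least 100 of them held 0.214% to 0.388% of the summed counts.

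The ratio of both HSP90 transcripts does not depend on how libraries are scaled. Hsp90aa1 reached 60.8%, 58.0% and 58.1% of the Hsp90ab1 count in control, 54.6%, 53.2% and 53.1% after SAHA and 39.0%, 39.0% and 38.3% in Smarcb1-RE. Every Smarcb1-RE library lay below every SAHA library in this ratio, and every SAHA library below every control. The difference in mean log2 ratio was -0.60 between Smarcb1-RE and control and -0.14 between SAHA and control. Each of these had p = 0.1 in a two-sided exact permutation test, the smallest p that 3 libraries against 3 allow (adjusted p = 0.15 over 9 such tests of 3 ratios).

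Hspa8, the constitutive HSP70 of the cytosol (HSC70, chr9:40800984-40810087, plus strand), had 3450, 3419 and 3327 CPM in control, 2532, 2316 and 2382 CPM in SAHA and 1228, 1141 and 1148 CPM in Smarcb1-RE. Groups did not overlap. It fell by 29.1% in SAHA (log2 fold change -0.50, standard error 0.04, adjusted p = 8.14e-07, edgeR) and by 65.5% in Smarcb1-RE (log2 fold change -1.54, standard error 0.05, adjusted p = 2.44e-11). Of the words of 31 bases in Hspa8 transcripts, 43.6% also occur in transcripts of other genes, most of them in Gm15459. The 10 genes outside the list that share at least 100 such words held 29.9% of the summed counts in control, 31.02% in SAHA and 30.6% in Smarcb1-RE. With their counts added to Hspa8, an alternative chosen after seeing the data, the log2 fold changes were -0.47 and -1.52. In control these 10 genes held 103672 counts and Hspa8 242917, beside 270158 for Hsp90ab1. With the added counts Hspa8 thus stood above Hsp90ab1, so the order of both depends on how reads are divided.

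Hspa1a and Hspa1b encode the stress-inducible HSP70 and both lie on the minus strand of chromosome 17, Hspa1b from 34956436 to 34959238 and Hspa1a from 34969190 to 34972156 (GRCm38, GENCODE M21). Of the 31-base words in Hspa1a transcripts, 63.8% occur in Hspa1b as well, so the division of counts between them is uncertain. Their RefSeq promoters (GRCm38.p6) were identical at 247 of 250 bases before the start. Both contain the same heat shock element letters, shown here with 15 bases on either side, 5′ to 3′, and with the 2 inverted GAA units in capitals.

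Hspa1a, chr17:34972238-34972275, minus strand: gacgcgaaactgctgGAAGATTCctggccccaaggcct

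Hspa1b, chr17:34959320-34959357, minus strand: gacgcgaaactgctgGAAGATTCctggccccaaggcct

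The counts attributed to Hspa1b were 360, 363 and 406 in control, 478, 584 and 556 after SAHA and 133, 115 and 122 in Smarcb1-RE. Every SAHA library lay above and every Smarcb1-RE library below every control library. Hspa1b rose from 15.8 ± 0.792 CPM (SD, n = 3) to 23.5 ± 2.58 CPM in SAHA (log2 fold change 0.57, standard error 0.08, adjusted p = 4.97e-05, edgeR) and fell to 5.34 ± 0.3 CPM in Smarcb1-RE (log2 fold change -1.56, standard error 0.10, adjusted p = 1.28e-08).

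Far fewer counts were attributed to Hspa1a, 55, 65 and 58 in control, 71, 43 and 131 after SAHA and 13, 1 and 4 in Smarcb1-RE. SAHA replicates spread on both sides of the controls (log2 fold change 0.51, standard error 0.39, adjusted p = 0.272, edgeR), and without SAHA replicate 3 the value was -0.0016. All Smarcb1-RE libraries lay below all controls, and 1 of them was under the floor (log2 fold change -3.24, standard error 0.55, adjusted p = 0.000142). Leaving out Smarcb1-RE replicate 1 moved this value to -4.46. Leaving out replicate 2 moved it to -2.76.

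Summed, both inducible HSP70 genes had 415, 428 and 464 counts in control, 549, 627 and 687 after SAHA and 146, 116 and 126 in Smarcb1-RE. The sum was higher in every SAHA library and lower in every Smarcb1-RE library than in any control. Its log2 fold change was 0.56 in SAHA (adjusted p = 6.59e-05, edgeR) and -1.70 in Smarcb1-RE (adjusted p = 7.62e-09). The summed inducible form thus reached only 0.511%, 0.529% and 0.574% of the Hspa8 count in control, 0.939%, 1.196% and 1.24% after SAHA and 0.507%, 0.450% and 0.473% in Smarcb1-RE. SAHA libraries were apart from the rest in this ratio, with a difference in mean log2 ratio of 1.06 from control, and Smarcb1-RE differed from control by -0.17 (each p = 0.1, two-sided exact permutation test, adjusted p = 0.15).

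**Figure D2:**
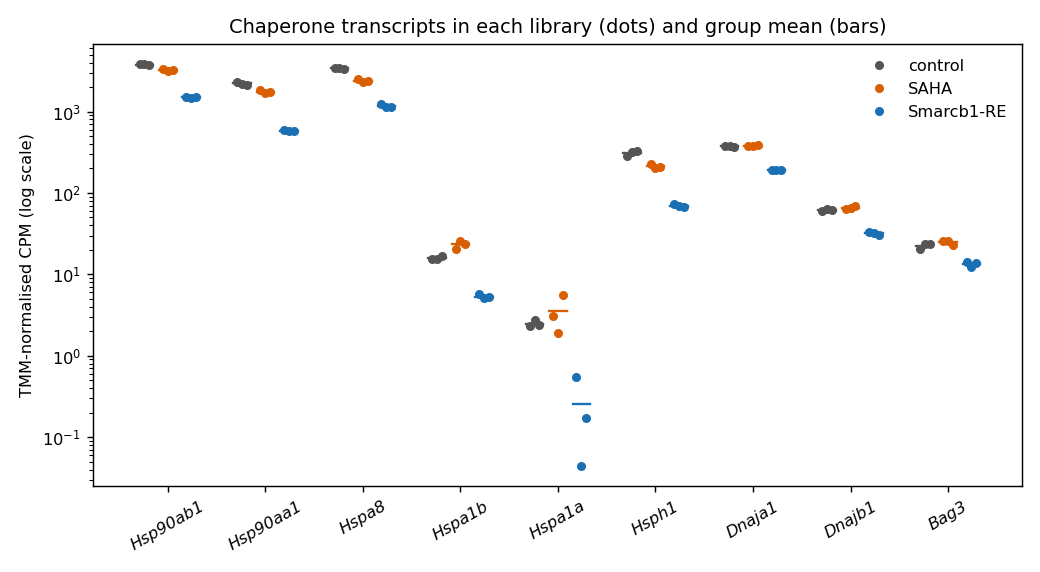
Each dot is the TMM-normalised level of a gene in 1 library (y axis, CPM, log scale) and each short bar the mean of 3 libraries, for the 9 tested genes in control, SAHA and Smarcb1-RE. Smarcb1-RE dots lie below those of both other groups for all 9 genes, from 0.0443 CPM for Hspa1a to 1523 CPM for Hsp90ab1. The share of all tested genes that separate in this way was not computed, and 38.6% of them were called lower in Smarcb1-RE than in control.

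Hsph1, an HSP110 protein that acts as a nucleotide exchange factor for HSP70 (chr5:149614287-149636376, minus strand), stood at 288, 323 and 325 CPM in control, 227, 203 and 207 CPM in SAHA and 73.9, 68.8 and 67.5 CPM in Smarcb1-RE. Groups were separate, and the drop in Smarcb1-RE was the deepest among members other than Hspa1a. It fell by 32.0% in SAHA (log2 fold change -0.56, standard error 0.06, adjusted p = 2.65e-06, edgeR) and by 77.5% in Smarcb1-RE (log2 fold change -2.15, standard error 0.06, adjusted p = 1.74e-11). No 31-base word of its transcripts occurs in another gene. Among the promoter windows read, only those of Hsph1 held 3 exact alternating units. These are in capitals in the stretch that follows. They begin 15 bases after one of its 2 RefSeq start sites and 36 bases after the other.

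Hsph1, chr5:149636280-149636308, minus strand: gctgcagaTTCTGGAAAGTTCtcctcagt

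Dnaja1 and Dnajb1 encode J-domain proteins, which hand unfolded proteins to HSP70 and stimulate its ATPase. Dnaja1 stood at 377, 373 and 371 CPM in control, 382, 381 and 386 CPM in SAHA and 189, 192 and 192 CPM in Smarcb1-RE. Dnajb1 stood at 59.7, 63.0 and 61.4 CPM in control, 63.5, 64.8 and 69.5 CPM in SAHA and 32.8, 32.5 and 30.6 CPM in Smarcb1-RE. For both, the SAHA libraries lay slightly above the controls and the Smarcb1-RE libraries well below them.

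In SAHA, neither J-domain gene was called, with log2 fold changes of 0.04 for Dnaja1 (standard error 0.03, adjusted p = 0.345, edgeR) and 0.10 for Dnajb1 (standard error 0.05, adjusted p = 0.0687). Both fell in Smarcb1-RE, Dnaja1 by 48.8% (log2 fold change -0.97, standard error 0.03, adjusted p = 9.25e-11) and Dnajb1 by 47.9% (log2 fold change -0.94, standard error 0.05, adjusted p = 2.78e-09). Their ratio overlapped between all groups, with a mean Dnajb1 to Dnaja1 ratio of 0.164 ± 0.00528 (SD, n = 3) in control, 0.172 ± 0.00724 in SAHA and 0.167 ± 0.00718 in Smarcb1-RE. Dnajb1 lies on chromosome 8 from 83608193 to 83612653, and Dnaja1 on chromosome 4 from 40722150 to 40737149 (GRCm38), where the other 777 tested protein-coding genes had a median log2 fold change of 0.37 in Smarcb1-RE. Relative to that median the log2 fold change of Dnaja1 was -1.34. On the other chromosomes that hold a tested member, such medians lay between -0.13 (chromosome 5) and 0.08 (chromosome 7). What the higher median of chromosome 4 reflects was not tested. Genes that share sequence with Dnaja1 held 17.2% to 19.0% of the summed counts, and with them added its log2 fold changes were 0.008 in SAHA and -0.97 in Smarcb1-RE.

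Bag3, a nucleotide exchange factor that links HSP70 to small heat shock proteins and autophagy (chr7:128523616-128546981, plus strand), stood at 20.5, 23.7 and 23.7 CPM in control, 25.8, 25.7 and 22.9 CPM in SAHA and 14.2, 12.5 and 13.8 CPM in Smarcb1-RE. SAHA and control overlapped, and Smarcb1-RE lay below both. The log2 fold change was 0.13 in SAHA (standard error 0.08, adjusted p = 0.145, edgeR) and -0.74 in Smarcb1-RE (standard error 0.08, adjusted p = 2.44e-06), the smallest drop among the 9 genes. The element letters in its promoter window begin 42 bases after the start.

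Hspb1 (HSP27), a small heat shock protein that binds unfolding proteins without ATP, was not tested, since it had 2 counts in control replicate 3 and 0 counts in the other 8 libraries. Both of these are under the floor of 3 counts per library. Of the 8 other small heat shock protein genes listed, Hspb6 alone was tested. It fell in SAHA (log2 fold change -0.61, standard error 0.13, adjusted p = 0.00128, edgeR) and rose in Smarcb1-RE (log2 fold change 1.51, standard error 0.12, adjusted p = 8.13e-08), from 4.38 ± 0.71 to 12.5 ± 0.474 CPM (SD, n = 3).

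**Figure D3:**
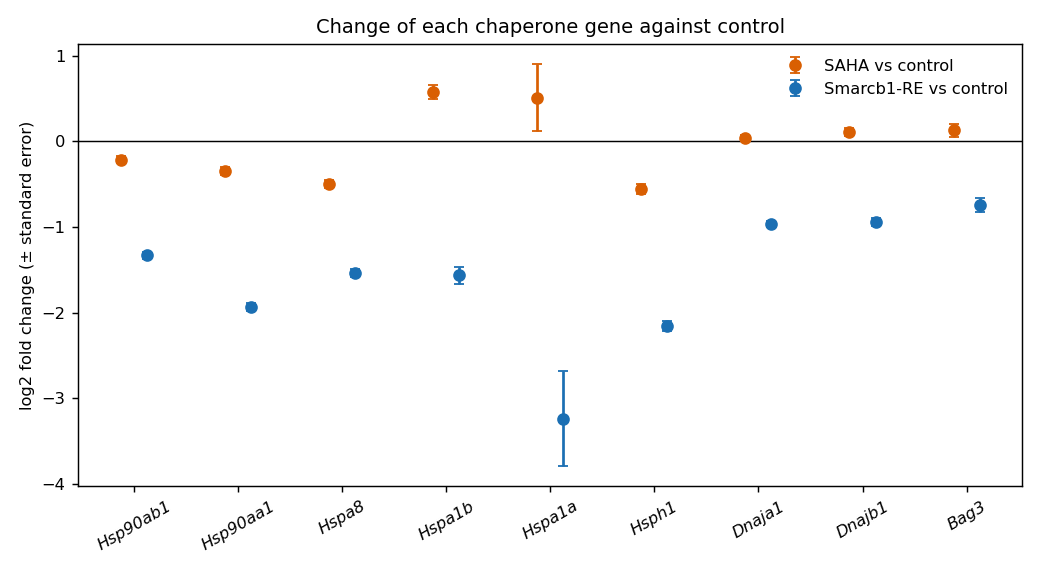
Points give the log2 fold change against control (y axis) of the 9 tested genes in SAHA and Smarcb1-RE, and bars the standard error of the fit. SAHA values lie between -0.56 and 0.57 on both sides of 0, whereas Smarcb1-RE values lie between -3.24 and -0.74.

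In the direct comparison, which tests whether both effects differ, each of the 9 genes was lower in Smarcb1-RE than in SAHA. Log2 differences ranged from -0.88 for Bag3 (standard error 0.08, adjusted p = 5.48e-07, edgeR) to -3.74 for Hspa1a (standard error 0.54, adjusted p = 3.47e-05). The Hspa1a value was -4.96 without Smarcb1-RE replicate 1, between -4.06 and -3.24 without any 1 other library, and -2.27 when summed with Hspa1b. For the HSP90 genes they were -1.12 for Hsp90ab1 (standard error 0.04) and -1.59 for Hsp90aa1 (standard error 0.05). Hspa8 differed by -1.04 (standard error 0.05) and Hspa1b, which rose in SAHA and fell in Smarcb1-RE, by -2.13 (standard error 0.10, adjusted p = 6.84e-10).

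**Figure D4:**
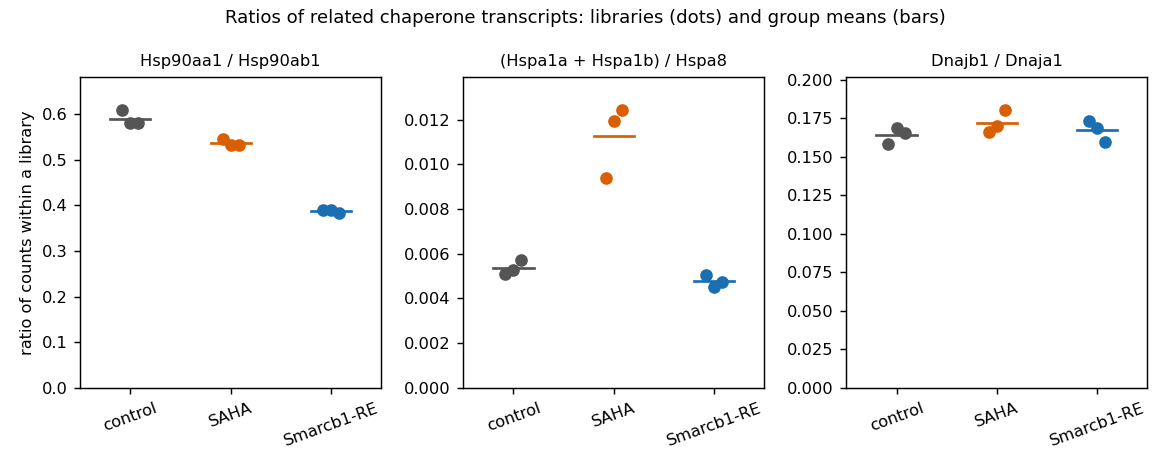
Dots give the ratio of counts within each library (y axis, no unit, from 0) for 3 pairs of related genes and bars the mean of 3 libraries. The ratio of Hsp90aa1 to Hsp90ab1 is lowest in Smarcb1-RE (0.383 to 0.390), that of the inducible HSP70 genes to Hspa8 is highest in SAHA (0.00939 to 0.0124), and that of Dnajb1 to Dnaja1 overlaps between groups.

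To compare genes with each other, levels were divided by the length of all annotated exons (CPM per kb). In control, Hsp90ab1 led with 1260 ± 26.2 CPM per kb (SD, n = 3), before Hspa8 with 790.2 ± 14.9 and Hsp90aa1 with 567 ± 24.3. Dnaja1 (43.3 ± 0.358) and Hsph1 (43.0 ± 2.82) did not differ beyond their spread, and Dnajb1 (19.2 ± 0.512), Bag3 (8.83 ± 0.736) and both inducible HSP70 genes (Hspa1b 5.63 ± 0.282 and Hspa1a 0.839 ± 0.0754) were lower. Hspb1 was under the floor. In Smarcb1-RE the 3 leading genes kept their order, at 501, 273 and 148 CPM per kb. The gap between Hsp90ab1 and Hspa8 depended on the length used. Over the longest protein-coding transcript they stood at 1500 and 1420 CPM per kb in control. Counts of genes that share sequence with Hspa8 are not included in these levels. The relative place of Hsph1 depended on the length too. Over all exons it stood at 9.65 ± 0.467 CPM per kb in Smarcb1-RE, where Dnajb1 had 9.97 ± 0.378. Over the longest protein-coding transcript it stood above Dnajb1 in that group (18.4 against 10.7 CPM per kb) and above Dnaja1 in control (82.1 against 66.4 CPM per kb).

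HSF1 and HSF2 are the transcription factors that bind heat shock elements. The level of Hsf1 was 97.5 ± 1.93 CPM (SD, n = 3) among controls and fell to 73.7 ± 1.38 CPM in SAHA (log2 fold change -0.40, adjusted p = 1.38e-06, edgeR) and to 84.6 ± 1.82 CPM in Smarcb1-RE (-0.21, adjusted p = 0.0003). Hsf2 rose from 15.2 ± 0.592 CPM to 26.1 ± 0.344 CPM in SAHA (log2 fold change 0.78) and to 19.1 ± 1.18 CPM in Smarcb1-RE (0.33). Hsbp1, whose protein binds HSF1 and restrains it, fell in both groups (log2 fold changes -0.39 and -0.45). Hdac6 rose from a mean of 21.1 ± 0.87 CPM to 35.6 ± 3.14 CPM in SAHA and 30.6 ± 1.84 CPM in Smarcb1-RE (log2 fold changes 0.75 and 0.53).

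The other chaperone genes were taken from lists compiled from general knowledge, with earlier results of these data known. Beside the counts of each list stand the shares of all tested genes. In SAHA 34.3% were called lower and 32.6% higher, and in Smarcb1-RE 38.6% lower and 39.2% higher. HSP90 co-chaperones load clients onto HSP90 or control its ATPase, and of 21 tested, 11 were lower and 4 higher in SAHA and 15 were lower and 3 higher in Smarcb1-RE, with median log2 fold changes of -0.23 and -0.80. The largest drops in Smarcb1-RE were those of Stip1, which joins HSP70 to HSP90 (log2 fold change -1.75, standard error 0.04, adjusted p = 2.2e-12, edgeR), and of the immunophilin Fkbp4 (-1.64, standard error 0.05). Fnip1 (0.47) and Tsc1 (0.32) rose there. In SAHA, Pih1d1 (-0.97) and the HSP90 ATPase activator Ahsa1 (-0.66) fell most, whereas Fnip1 (0.31) and the kinase-loading co-chaperone Cdc37 (0.31) rose.

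Of 24 tested genes of the HSP70 and HSP110 system outside the 10, 12 were lower and 6 higher in SAHA and 19 were lower and 4 higher in Smarcb1-RE (median log2 fold changes -0.12 and -0.36). Bag2 (-1.46) and Hspa2 (-1.36) fell most in Smarcb1-RE, and the J-domain genes Dnajb4 (0.83) and Dnajb2 (0.57) rose most. In SAHA, Dnaja4 (-1.26) and Bag2 (-0.98) fell and Dnajb6 (0.62) and Dnaja2 (0.47) rose. J-domain genes were thus called in both directions in Smarcb1-RE, where Dnaja1 and Dnajb1 fell.

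The chaperonin CCT folds actin and tubulin, which prefoldin delivers to it. Of 13 tested subunit genes of both complexes, 8 were lower and 3 higher in SAHA and 12 were lower and 1 higher in Smarcb1-RE (median log2 fold changes -0.22 and -0.74), with Cct3 (-1.31) and Cct8 (-1.05) the lowest and Pfdn5 (0.20) the exception in Smarcb1-RE. Of 11 mitochondrial chaperone genes, 6 were lower and 2 higher in SAHA and 8 were lower and 1 higher in Smarcb1-RE (medians -0.19 and -0.63). Hspd1, the mitochondrial HSP60, fell most (-1.55 in Smarcb1-RE), and Hscb (0.64) rose. Of 17 ER chaperone genes, 8 were lower and 4 higher in SAHA and 15 were lower and 2 higher in Smarcb1-RE (medians -0.10 and -0.76), led by Creld2 (-1.38) and Pdia6 (-1.31). Whether the lists differed from the 10 cytosolic genes was not tested.

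**Figure D5:**
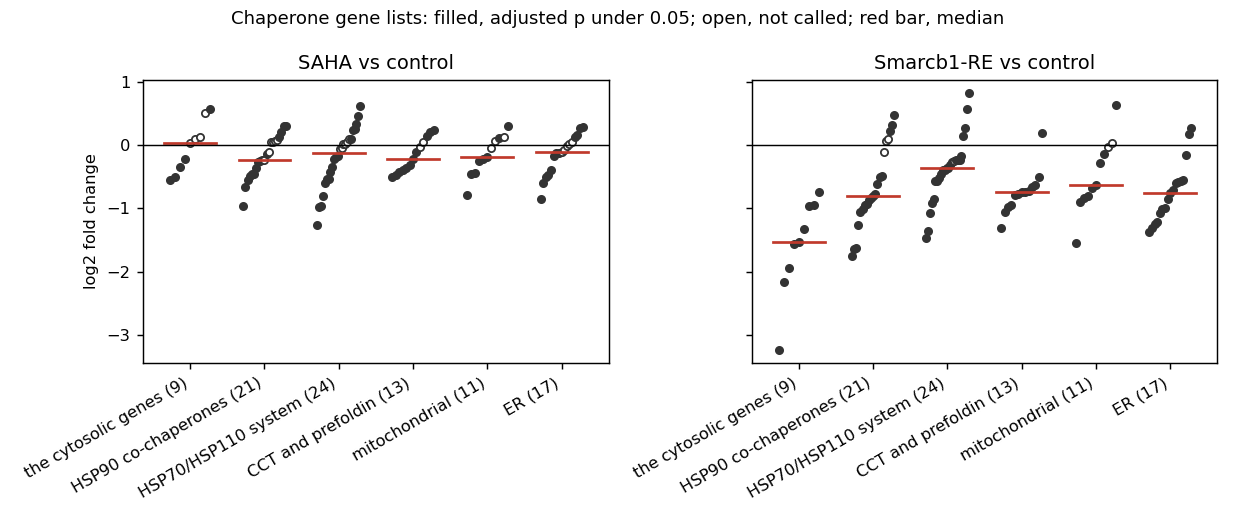
Each dot is the log2 fold change against control (y axis) of 1 tested gene, filled where the adjusted p-value was under 0.05, and red bars are list medians, for SAHA (left) and Smarcb1-RE (right). Medians in SAHA lie between -0.23 and 0.04, and in Smarcb1-RE between -0.36 for the HSP70 and HSP110 system and -1.54 for the 9 cytosolic genes.

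Promoter windows of 300 bases, 250 before and 50 after a RefSeq start site (GRCm38.p6), were read for 7 of the 10 genes, in 11 windows. Promoters of Hspa8, Hsp90aa1 and Hsp90ab1 were not analysed here. Heat shock elements consist of inverted GAA units spaced by 2 bases. The 2-unit forms GAANNTTC and TTCNNGAA were searched on both strands, each being its own reverse complement, and the 3-unit forms GAANNTTCNNGAA and TTCNNGAANNTTC contain them. At least one 2-unit form was found in 6 of the 7 genes, Hspa1a, Hspa1b, Hsph1, Dnaja1, Bag3 and Hspb1, and counted by window in 7 of the 11, where 15.1% of all 32851 windows of this length held one. A 3-unit form was found in 1 of the 7 genes, Hsph1, whose 2 windows overlap, and in 0.603% of all windows. Neither form was present in the 2 windows of Dnajb1. Only exact units were searched, so elements with imperfect units were not counted in any window. The stretches of Dnaja1 and of the undetected Hspb1 are shown to set beside those above, again with the 2-unit forms in capitals.

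Dnaja1, chr4:40722329-40722366, plus strand: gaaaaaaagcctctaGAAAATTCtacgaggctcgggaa

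Hspb1, chr5:135887787-135887844, plus strand: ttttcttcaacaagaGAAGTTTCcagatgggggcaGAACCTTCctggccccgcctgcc

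The 2-unit forms were present in Hsph1 and in Hspb1, whose transcript was under the floor in all 9 libraries, and the 3-unit form only in Hsph1. How such letters relate to the changes in level was not tested. A match of letters is not a measurement of binding.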

How the data were processed

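RNA-seq libraries of T15 cells (3 control, 3 SAHA, 3 Smarcb1-RE) had been prepared with a strand-preserving (directional) kit and read from a single end. The authors deposited 1 table of estimated counts per Ensembl gene, without normalization or pooling, of which 52.4% of the values above 0 were not whole. The submitters' processing notes name Salmon 0.14.1, DESeq2 1.22.2, FastQC 0.11.8 and MultiQC 1.7 and the build GRCm38, with no role, and the annotation is not given in the sources used here. How such an estimate divides reads between paralogs or pseudogenes is model-based, so values of such genes are uncertain.

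Counts were rounded and matched to GENCODE M21 (99.5% of identifiers), normalised by TMM, filtered with filterByExpr (minimum count 10) and fitted to all 9 libraries in 1 model with edgeR 4.0.16 in R 4.3.3 (glmQLFit, glmQLFTest, Benjamini-Hochberg over 13697 genes). Genes were called at an adjusted p-value under 0.05. Standard errors are the absolute log2 fold change over the square root of F. Ratios were compared by two-sided exact permutation tests. The fit was tested on simulated counts in which far fewer genes changed than were called here. That simulation therefore did not test the scaling under so many changes.

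The 10 genes and all lists were chosen with earlier results of these data known. Besides them, the text names Smarcb1, Hdac6, Hsf1, Hsf2, per list, comparison with control and direction at most 2 called genes, those with the greatest absolute fold change at an average log2 CPM not under 1, and the gene most similar to each member. The replicate numbers come from the titles. Same-numbered libraries did not deviate together (correlations of deviations from the group means -0.08 to 0.041), so no block was used. The labels name separate cell samples only by number, and the methods call them biological replicates. No replicate pair agreed within sampling noise (chi-square per gene 2.12 to 15.0, highest in the 2 pairs with control replicate 1). Alternatives were RLE factors, library totals, no filter, DESeq2 1.42.0, separate fits, the replicate block, a fold threshold (absolute log2 value of 1), leaving out each library, summing Hspa1a with Hspa1b, subtracting chromosome medians and, added after seeing the data, summing in genes that share sequence.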

Additional observations from a re-analysis of the deposited data

How the results depend on the processing

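For the 9 tested cytosolic genes, the counts called in each direction did not move under RLE factors, library totals, no filter, DESeq2, separate fits, the replicate block or without any 1 library. With the replicate block, 9 genes were lower in Smarcb1-RE and 4 lower and 1 higher in SAHA. A minimum absolute log2 fold change of 1 left 0 lower and 0 higher genes in SAHA, 6 lower in Smarcb1-RE and 8 lower in Smarcb1-RE against SAHA, with the shares of all tested genes given above. Summing Hspa1a with Hspa1b made 8 of 8 lower in Smarcb1-RE than in control, where 38.6% of all tested genes were lower in the main fit. Hspa1a in SAHA changed sign without SAHA replicate 3 (-0.0016), lay between there and 0.8042 over the fits without 1 library, and was called only when summed with Hspa1b. The other tested members kept direction and side of the threshold under the alternatives named here, other than the minimum fold change. With library totals in place of TMM, the median over all genes in Smarcb1-RE moved from 0.01 to 0.17 (log2) and the share of higher calls among all calls from 50.4% to 61.0%. Members then lay between -3.08 (Hspa1a) and -0.59 (Bag3). Subtracting chromosome medians, which carries no test, changed no direction of a called member but moved some sizes. In Smarcb1-RE, Dnaja1 went from -0.97 to -1.34 and Hsph1 from -2.15 to -2.03, and in SAHA, Hsp90ab1 went from -0.21 to -0.28. Counts of other lists did move. Under library totals, higher calls in Smarcb1-RE rose from 3 to 5 among HSP90 co-chaperones and from 1 to 2 among mitochondrial chaperones, and lower calls among heat shock factors and their regulators fell from 2 to 1. Higher calls among ER chaperones in Smarcb1-RE (2) were 1 with DESeq2 or without the filter. Low counts limit Hspa1a and Hspb1, and shared sequence limits Hspa1a, Hspa1b, Hspa8, Dnaja1 and Hspb1. The gene outside the list that shares sequence with Hspa1a held 30.8% of the summed counts in Smarcb1-RE, which is 8 counts beside 18 of Hspa1a over the whole group. Its share was 2.2% in control and 3.54% in SAHA. Summing it in moved the log2 fold change of Hspa1a against control from -3.24 to -2.75.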

Other observations

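Immediate early genes, which respond within minutes to handling and signalling, were listed as a check on acute stress during harvest. Of 9 tested, 7 were higher and 2 not called in SAHA and 5 were higher and 2 lower in Smarcb1-RE (median log2 fold changes 0.59 and 0.34). Over all tested genes, 32.6% were higher in SAHA, and 39.2% were higher and 38.6% lower in Smarcb1-RE. In SAHA, Fos rose from 10.8 ± 0.694 to 37.6 ± 4.62 CPM (SD, n = 3; log2 fold change 1.79, standard error 0.09, adjusted p = 7.04e-09, edgeR) and Egr1 from 45.9 ± 2.79 to 116 ± 4.24 CPM (1.34). In Smarcb1-RE, Jun (0.63) and Zfp36 (0.41) rose, and Junb (-0.49) and Egr1 (-0.44) fell. Their part in the changes of the chaperone genes was not tested.

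Over the 9 libraries, the gene whose log2 CPM was most similar to that of Hspa8 was Fkbp4, an HSP90 co-chaperone (Pearson's r = 0.9996). For Hsph1 it was Tpx2, a spindle assembly factor (0.9995), for Hsp90aa1 Pclaf, a PCNA-binding protein of replication (0.9994), and for Hsp90ab1 Mthfd1, an enzyme of folate metabolism (0.9993). Dnaja1 was most similar to Bicdl1 (0.9998), Dnajb1 to Rassf3 (0.9986), Hspa1b to Ormdl2 (0.9973), Bag3 to Wapl (0.9936) and Hspa1a to Gapdh (0.975). The points are 3 groups of 3 libraries, so these values mainly describe similar group means and carry no test.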
